A study of Mus musculus with 15 samples.

Results

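The 32 genes described here encode the mouse machinery of antigen presentation by major histocompatibility complex (MHC) class I and class II, and were taken by gene symbol from the 56748 genes of the count table. All 32 had counts, and all 32 passed the filter on low counts in each fit. RNA had been sequenced from whole kidney or whole lung of male wild-type C57Bl/6 mice, 3 per group. WTK was kidney after vehicle. IgGK and LepK were kidney after folic acid at 200 mg/kg, which injures the tubules, followed at 10 mg/kg by either control IgG or LepAb, an antibody that neutralizes leptin. IgGL and LepL were lung after intratracheal bleomycin at 1.5 units/kg, followed by the same 2 antibodies at the same dose. The kidney mice were 10 to 12 weeks old and were killed at day 28, and the lung mice were 12 weeks old and were killed at day 14. By the methods, antibody was given up to the end in lung and stopped before day 28 in kidney. The methods describe LepAb or control IgG after vehicle as well, and the labels do not say which, if either, WTK received. Vehicle-treated lung was not analysed here. The sources do not say that the 3 samples of a group came from separate cohorts, so the p-values measure the spread between these samples.

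MHC class II molecules carry peptides from engulfed protein to CD4 T cells. They are made mainly by dendritic cells, B cells and activated macrophages, and in mouse lung also by alveolar type 2 cells. MHC class I molecules carry peptides from proteins made inside the cell to CD8 T cells and are present on nearly all nucleated cells. Interferon-gamma raises both pathways, class II through the transactivator CIITA and class I through its relative NLRC5. Both act at gene promoters on a set of short elements that includes the X box and the Y box.

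Promoter sequences were available for 27 of the 32 genes in the RefSeq table of build GRCm38.p6, as windows of 300 bases from 250 before to 50 after an annotated start. H2-Ab1, Cd74, Ciita, Nlrc5 and Tap2 had no entry. The letters GATTGG of the Y box, searched on both strands, were found at 19 of the 27 genes and in 16.1% of all 32851 windows. AGNNACNGA, taken from the X box, was found at 9 genes and in 17.7% of windows. GGGANTNCC, an NF-kB type site, was found at 6 genes and in 3.95% of windows, and GAAANNGAA, an interferon-response type element, at 4 genes and in 8.56%. The windows below belong to genes that the kidney results turn on, namely 3 class II genes, a class I heavy chain, beta-2-microglobulin and a peptide transporter. Capitals mark the matches to the 4 patterns.
H2-Aa, chr17:34287774-34288073, minus strand: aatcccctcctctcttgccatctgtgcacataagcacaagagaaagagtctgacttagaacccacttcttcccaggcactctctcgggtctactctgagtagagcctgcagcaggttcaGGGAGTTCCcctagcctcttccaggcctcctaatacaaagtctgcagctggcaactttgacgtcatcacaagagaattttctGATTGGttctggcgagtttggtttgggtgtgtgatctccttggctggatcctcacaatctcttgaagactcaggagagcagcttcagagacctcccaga
H2-Eb1, chr17:34305617-34305916, plus strand: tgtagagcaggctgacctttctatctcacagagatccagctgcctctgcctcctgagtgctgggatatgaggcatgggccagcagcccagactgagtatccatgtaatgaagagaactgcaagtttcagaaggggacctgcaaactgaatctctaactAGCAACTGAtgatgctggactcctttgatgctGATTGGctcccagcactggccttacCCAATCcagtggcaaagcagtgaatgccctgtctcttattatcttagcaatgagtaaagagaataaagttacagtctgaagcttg
H2-DMb1, chr17:34152941-34153240, plus strand: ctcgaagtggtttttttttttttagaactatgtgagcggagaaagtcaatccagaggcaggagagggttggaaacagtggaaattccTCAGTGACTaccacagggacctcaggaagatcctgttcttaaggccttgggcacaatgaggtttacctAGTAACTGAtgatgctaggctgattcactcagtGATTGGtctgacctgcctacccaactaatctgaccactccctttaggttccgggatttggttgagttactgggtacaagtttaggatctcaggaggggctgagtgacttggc
H2-K1, chr17:34000284-34000583, minus strand: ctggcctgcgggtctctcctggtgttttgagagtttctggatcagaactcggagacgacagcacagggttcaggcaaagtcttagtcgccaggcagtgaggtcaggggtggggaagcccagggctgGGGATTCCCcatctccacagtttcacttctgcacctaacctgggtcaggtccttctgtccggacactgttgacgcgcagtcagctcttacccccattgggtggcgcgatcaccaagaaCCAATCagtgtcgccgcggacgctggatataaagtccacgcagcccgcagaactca
B2m, chr2:122147437-122147736, plus strand: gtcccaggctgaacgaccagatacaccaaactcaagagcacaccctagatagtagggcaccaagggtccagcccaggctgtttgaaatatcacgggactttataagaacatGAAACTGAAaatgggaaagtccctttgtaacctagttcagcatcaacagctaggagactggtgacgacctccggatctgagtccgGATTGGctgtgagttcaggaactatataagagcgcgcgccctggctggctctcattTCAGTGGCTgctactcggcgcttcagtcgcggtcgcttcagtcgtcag
Tap1, chr17:34187306-34187605, plus strand: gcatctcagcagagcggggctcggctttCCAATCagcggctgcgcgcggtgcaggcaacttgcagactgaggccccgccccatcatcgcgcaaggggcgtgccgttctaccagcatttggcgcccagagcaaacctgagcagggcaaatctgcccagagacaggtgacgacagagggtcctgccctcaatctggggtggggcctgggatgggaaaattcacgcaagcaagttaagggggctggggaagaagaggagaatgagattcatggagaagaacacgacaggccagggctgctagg
In the class II windows, the GATTGG match began 49 bases before the annotated start for H2-Aa, 60 for H2-Eb1 and 62 for H2-DMb1. In H2-Eb1 and H2-DMb1 an AGNNACNGA match lay upstream of it, beginning 92 and 95 bases before the start. The NF-kB type match was found in H2-Aa and in 5 class I heavy chain genes, H2-K1, H2-D1, H2-Q4, H2-Q6 and H2-Q7. A match of letters is a description of the window, not evidence of binding.

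Total counts per library ran from 25913969 to 38924788, so that 1 count equalled 0.0257 to 0.0386 CPM (counts scaled to a common library size). Levels below are normalized CPM, scaled within the 9 kidney or within the 6 lung libraries. The tissues matched their labels. Lrp2, the endocytic receptor of the proximal tubule, was at 562 to 2016 normalized CPM in kidney, and Sftpc, the alveolar type 2 surfactant protein, was at 3545 to 16595 in lung and at 0.0866 or less in kidney. IgGL replicate 1 stood apart from the other IgGL libraries for the class II genes, and the lung results are given with and without it. A gene was called changed when its log2 fold change exceeded 0.5 in size and its adjusted p was under 0.05 in edgeR's quasi-likelihood test, adjusted over all genes tested.

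Folic acid injury with control IgG was accompanied by higher levels of most antigen presentation genes. In IgGK against WTK, 25 of the 32 genes rose and 0 fell, where 21.7% of all 19593 genes tested rose and 15.6% fell. The median log2 fold change was 1.31 over the 32 genes and 0.04 over all genes tested. The 3 IgGK values did not overlap the 3 WTK values for 31 of the 32 genes, where 62.6% of all genes tested did not overlap. Class II genes moved furthest. Of the 13 class II genes, counting CIITA, 12 rose, with a median of 2.32, and of the 19 class I genes, counting NLRC5, 13 rose, with a median of 1.05.

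Among the class II chains, H2-Aa, the alpha chain of the I-A molecule, was at 102, 125 and 131 normalized CPM in WTK, at 662, 901 and 754 in IgGK, and at 363, 471 and 448 in LepK. The 3 kidney groups lay apart, with LepK in the middle. H2-Aa rose 6.47-fold in IgGK against WTK (log2 fold change 2.69 ± 0.14 (SE), adjusted p = 3.42e-08) and fell in LepK against IgGK (-0.85 ± 0.13, adjusted p = 0.0010). Its partner H2-Ab1, the I-A beta chain, was at 118, 146 and 142 in WTK, at 627, 826 and 689.5 in IgGK and at 345, 485 and 453 in LepK. The groups again did not overlap, and the log2 fold changes were 2.40 ± 0.14 with injury and -0.74 ± 0.13 with LepAb. H2-Eb1, the I-E beta chain, was at 105, 130.04 and 127 in WTK, at 684, 884 and 735 in IgGK and at 321, 518 and 469 in LepK, with log2 fold changes of 2.67 ± 0.17 and -0.82 ± 0.16. H2-Eb2, a second I-E beta gene, was close to the detection limit, at 0.0415 to 0.577 normalized CPM in WTK and 1.61 to 3.14 in IgGK. It rose with injury (2.94 ± 0.62, adjusted p = 0.00139), and its LepAb value was not called (-1.31 ± 0.55, adjusted p = 0.115).

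**Figure D1:**
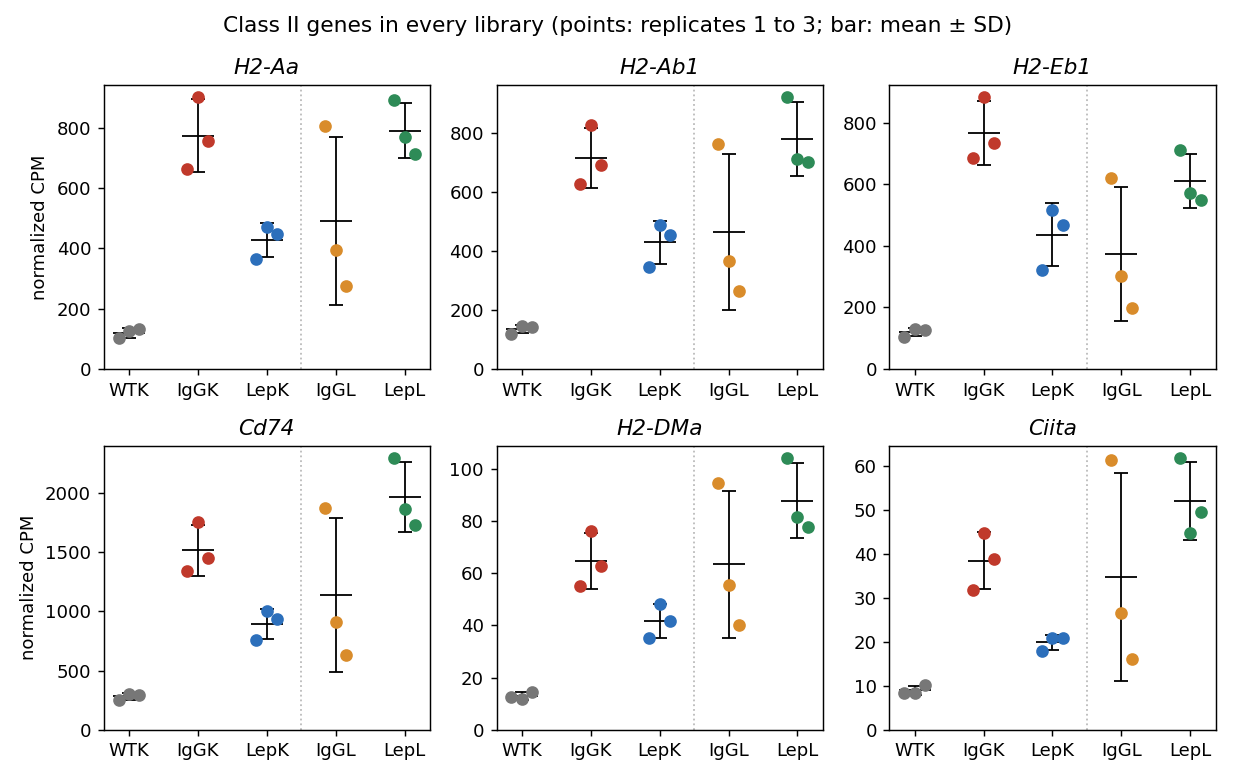
Normalized CPM (vertical axis, linear from 0) of 6 class II genes in each of the 15 libraries, by group on the horizontal axis, with points for replicates and bars for mean ± SD (n = 3). Kidney and lung were scaled apart (dotted line). H2-Aa lies at 102 to 131 in WTK, 662 to 901 in IgGK and 363 to 471 in LepK, and IgGL replicate 1 (805) lies among the LepL points (713 to 891).

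Of the 8 genes in the class II loading group, Cd74, H2-DMa, H2-DMb1, H2-DMb2 and Ifi30 had the same order of kidney groups without overlap. H2-Oa, H2-Ob and Lgmn did not. Of all genes tested, 62.6% did not overlap between IgGK and WTK and 37.4% between LepK and IgGK. The order of all 3 groups was not counted over all genes. Cd74, the invariant chain that holds the groove until peptide arrives, was at 251, 302 and 296 normalized CPM in WTK, at 1340.0, 1760.3 and 1451 in IgGK and at 754, 1002 and 933 in LepK. None of these groups overlapped, and Cd74 rose with injury (2.42 ± 0.13) and fell with LepAb (-0.76 ± 0.12, adjusted p = 0.0014). H2-DMa, H2-DMb1 and H2-DMb2 encode the H2-DM molecule that exchanges the invariant chain fragment for peptide. H2-DMb2 rose most of all 32 genes in log2 terms, from 3.28, 3.63 and 4.04 in WTK to 26.6, 40.7 and 30.04 in IgGK (3.15 ± 0.18), and was at 15.3, 20.6 and 20.2 in LepK (-0.80 ± 0.16). H2-DMa and H2-DMb1 also rose with injury (2.32 ± 0.14 and 1.35 ± 0.14) and fell with LepAb (-0.64 ± 0.13 and -0.55 ± 0.14).

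H2-Oa and H2-Ob form H2-O, which inhibits H2-DM and is known chiefly from B cells. Both rose with injury (2.09 ± 0.38 and 1.28 ± 0.27), and neither LepAb value was called (-0.42 ± 0.35 and -0.40 ± 0.26, adjusted p = 0.448 and 0.320). Ifi30, the thiol reductase that opens disulfide bonds of antigens, rose with injury (0.73 ± 0.09), and its LepAb value of -0.33 ± 0.09 lay under the fold threshold. Lgmn, a lysosomal protease, went the other way. It was at 688, 757 and 705 in WTK, at 535, 527 and 521 in IgGK and at 547, 514 and 534 in LepK. Its injury value of -0.44 ± 0.06 (adjusted p = 7.46e-05) lay under the fold threshold, and its LepAb value was 0.01 ± 0.06.

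Both transactivators were called in both kidney comparisons. Ciita was at 8.38, 8.33 and 10.1 normalized CPM in WTK, at 31.8, 44.6 and 38.9 in IgGK and at 17.9, 20.8 and 20.8 in LepK. It rose with injury (2.11 ± 0.13) and fell with LepAb (-0.96 ± 0.13, adjusted p = 0.000476). Nlrc5 was at 10.96, 11.5 and 12.7 in WTK, at 33.2, 48.7 and 34.02 in IgGK and at 18.5, 21.4 and 25.8 in LepK, with log2 fold changes of 1.72 ± 0.16 and -0.82 ± 0.15. The groups did not overlap for either gene. Ciita fell furthest of the 13 genes called with LepAb.

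**Figure D2:**
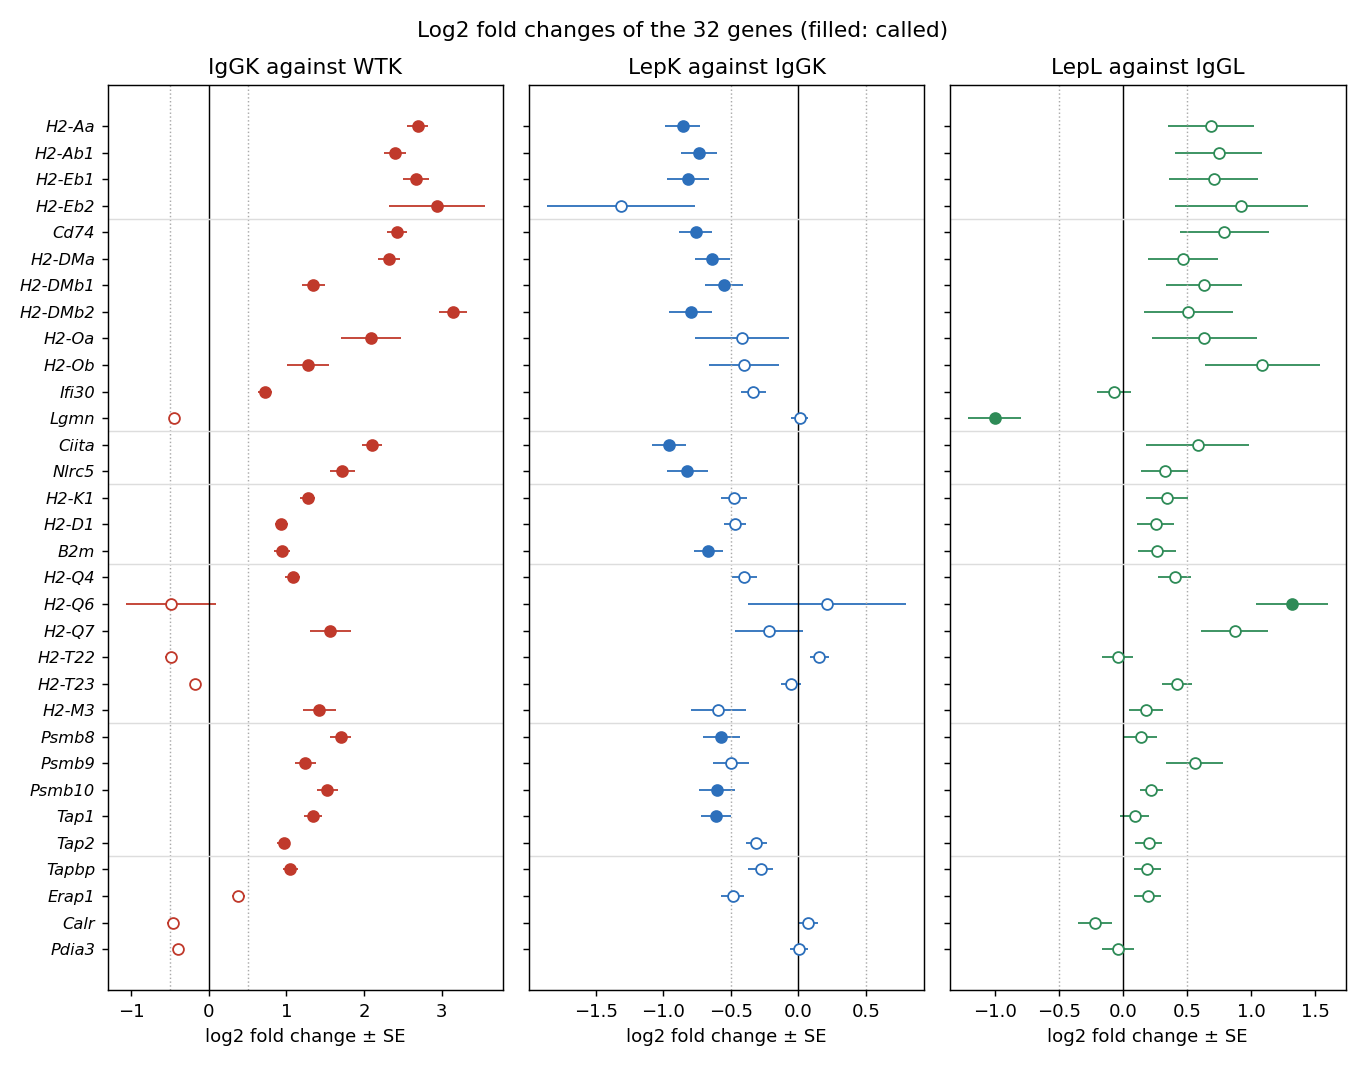
Log2 fold change ± SE (horizontal axis) of the 32 genes (rows, grouped by role, from class II chains at the top to class I loading at the bottom) in IgGK against WTK, LepK against IgGK and LepL against IgGL. Filled points are called, dotted lines mark the threshold of 0.5, and the panels have different scales. There are 25 filled points to the right in the first panel, 13 to the left in the second, and 1 on each side in the third (H2-Q6 and Lgmn).

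LepAb was accompanied by lower levels of many of the same genes in injured kidney. In LepK against IgGK, 13 of the 32 genes fell and 0 rose, where 5.99% of genes tested fell and 4.38% rose. The 13 were H2-Aa, H2-Ab1, H2-Eb1, Cd74, H2-DMa, H2-DMb1, H2-DMb2, Ciita, Nlrc5, B2m, Psmb8, Psmb10 and Tap1. A further 8 genes passed the adjusted p with a log2 fold change of 0.5 or less in size, and 11 did not pass it. The median was -0.49 over the 32 genes and -0.01 over all genes. The groups did not overlap for 23 of the 32 genes, where 37.4% of all genes tested did not overlap. Of the 25 genes that rose in IgGK against WTK, all 25 had a LepK mean between the WTK and IgGK means, and for 21 the 3 groups lay apart with LepK in the middle. The 2 comparisons share the IgGK samples, so genes picked as high in IgGK tend to lie lower in LepK. The same order over all genes tested was not counted. IgGK replicate 2 was highest of the IgGK libraries for most of these genes. Without it, 8 of the 32 genes and 695 of all genes tested fell. In a test against the fold threshold itself (glmTreat) only Ciita of the 32 passed, and 137 of all genes tested fell.

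LepK stayed above WTK for most of the genes. In LepK against WTK, 21 of the 32 genes were higher and 0 lower, where 15.2% of genes tested were higher and 7.3% lower. The median was 0.80, and 14 of the 32 genes and 1643 of all genes tested passed as higher in glmTreat. Of the 13 genes that fell with LepAb, 12 were still called higher than in WTK. The exception was B2m, beta-2-microglobulin, the light chain of every class I molecule, with 0.28 ± 0.11 (adjusted p = 0.0595).

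Class I chains moved less than class II chains. H2-K1, the classical K heavy chain, was at 423, 445 and 452 normalized CPM in WTK, at 944, 1221 and 1037 in IgGK and at 693, 799 and 807 in LepK. H2-D1, the classical D heavy chain, was at 369, 362 and 376 in WTK, at 635, 792 and 689 in IgGK and at 490.3, 532 and 508 in LepK. B2m was at 299, 380.1 and 367 in WTK, at 620.4, 779.5 and 610.1 in IgGK and at 409.6, 422 and 434 in LepK. All 3 rose with injury, by 1.28 ± 0.10, 0.94 ± 0.08 and 0.94 ± 0.11 on the log2 scale, and the kidney groups of each did not overlap. With LepAb, B2m fell (-0.67 ± 0.11, adjusted p = 0.00133), and H2-K1 and H2-D1 lay just under the fold threshold (-0.48 ± 0.10 and -0.47 ± 0.08, adjusted p = 0.00429 and 0.00196).

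The 6 nonclassical (class Ib) heavy chains were mixed. H2-Q4, H2-Q7 and H2-M3 rose with injury (1.08 ± 0.10, 1.57 ± 0.27 and 1.43 ± 0.21), of which H2-M3 presents formylated peptides. H2-T23, which encodes the Qa-1 ligand of NKG2 receptors, was not called (-0.17 ± 0.07, adjusted p = 0.0673), and its sign turned under library-size scaling (0.27). H2-T22 had -0.48 ± 0.07, under the fold threshold, and H2-Q6 had -0.49 ± 0.58, with WTK values of 6.56, 2.96 and 0.577 normalized CPM, a wider spread than the difference. With LepAb in kidney 0 of the 6 were called, at -0.59 ± 0.20 for H2-M3 (adjusted p = 0.0573) to 0.21 ± 0.58 for H2-Q6.

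All 5 genes of class I peptide supply rose with injury. Psmb8, Psmb9 and Psmb10 encode the catalytic subunits of the immunoproteasome, and Tap1 and Tap2 the transporter that carries peptides into the endoplasmic reticulum. Psmb8 was at 12.9, 15.2 and 15.9 normalized CPM in WTK, at 41.2, 57.6 and 43.8 in IgGK and at 27.2, 33.9 and 35.1 in LepK. Tap1 was at 25.5, 24.7 and 30.2 in WTK, at 63.2, 78.8 and 61.6 in IgGK and at 40.5, 49.5 and 43.5 in LepK. Neither gene had overlapping groups. The injury values of the 5 genes were 0.97 ± 0.08 (Tap2) to 1.70 ± 0.14 (Psmb8). Psmb8, Psmb10 and Tap1 fell with LepAb (-0.57 ± 0.13, -0.60 ± 0.13 and -0.61 ± 0.11), and Psmb9 and Tap2 had -0.50 ± 0.13 and -0.31 ± 0.08, with adjusted p = 0.0213 and 0.0156, without reaching the fold threshold.

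Each immunoproteasome subunit replaces a constitutive one, and the ratio of the pair was computed within a library from levels per kilobase. Psmb8 per Psmb5 was 0.0352 ± 0.0049 (SD, n = 3) in WTK, 0.160 ± 0.032 in IgGK and 0.0878 ± 0.0075 in LepK. Psmb9 per Psmb6 was 0.0394 ± 0.0055, 0.122 ± 0.019 and 0.0773 ± 0.0092. Psmb10 per Psmb7 was 0.606 ± 0.090, 3.54 ± 0.76 and 1.98 ± 0.67. For all 3 ratios the 3 IgGK libraries lay above the 3 WTK and the 3 LepK libraries, and the 2-sided exact permutation test gave p = 0.1, the smallest that 3 against 3 allows. The constitutive subunits were also lower in IgGK than in WTK without overlap. Psmb7 fell (-1.01 ± 0.13), and Psmb5 and Psmb6 had -0.48 ± 0.06 and -0.39 ± 0.06, under the fold threshold. With this scaling, part of the change in each ratio lay in its denominator. That part depends on the scaling, and the ratios do not. Library-size scaling moved the median of all genes tested from 0.04 to 0.48, and the constitutive subunits were not examined under it.

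Of the class I loading factors, Tapbp (tapasin, which holds the empty class I molecule at the transporter) rose with injury (1.05 ± 0.09), and its LepAb value was -0.28 ± 0.09 (adjusted p = 0.0485). Erap1, the aminopeptidase that trims peptides, had 0.38 ± 0.09 with injury and -0.48 ± 0.09 with LepAb. The general chaperones Calr and Pdia3 had -0.47 ± 0.07 and -0.40 ± 0.07 with injury, under the fold threshold, and 0.07 ± 0.07 and 0.00 ± 0.07 with LepAb. The injury value of Pdia3 turned sign under library-size scaling (0.04), which moved the median of all genes tested from 0.04 to 0.48 in that comparison.

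**Figure D3:**
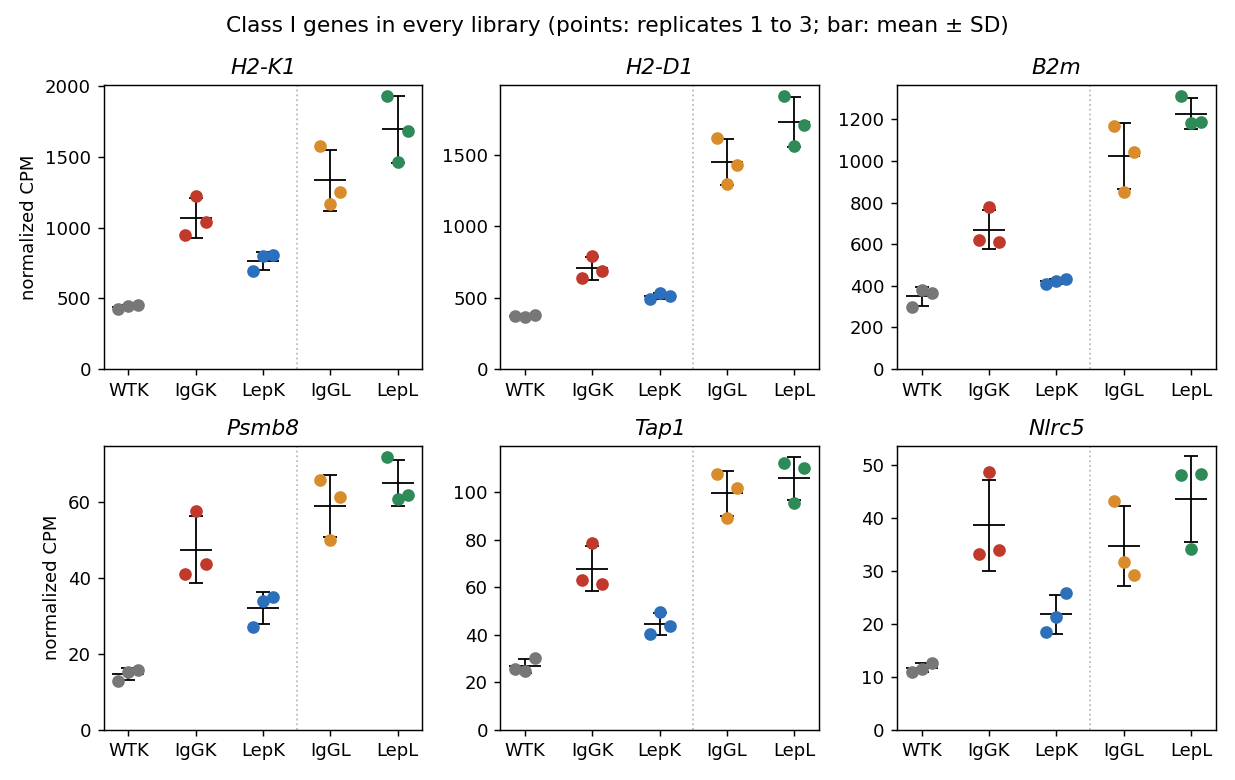
Normalized CPM (vertical axis, linear from 0) of 6 class I genes in each of the 15 libraries by group, with points for replicates and bars for mean ± SD (n = 3). Kidney and lung were scaled apart (dotted line). H2-K1 lies at 423 to 452 in WTK, 944 to 1221 in IgGK and 693 to 807 in LepK, and its IgGL (1169 to 1579) and LepL (1465 to 1934) points overlap.

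Markers of immune cells moved with these genes in kidney. All 6 general leukocyte markers rose in IgGK against WTK and all 6 fell in LepK against IgGK, with a summed level of 92.6 to 118 normalized CPM in WTK, 432 to 604 in IgGK and 231 to 307 in LepK. Of 12 macrophage markers 11 rose and 10 fell, with sums of 272 to 310, 1907 to 2414 and 717 to 1043. All 9 dendritic cell markers rose and 2 fell (sums of 41.4 to 53.8, 156 to 217 and 94.2 to 123), and all 8 T cell markers rose and 1 fell (8.26 to 11.8, 39.5 to 70.9 and 31.4 to 42.0). Of 8 B cell markers 1 rose and 0 fell, and their sums overlapped in all 3 groups (12.6 to 22.1 over all 9 libraries). Of 6 natural killer cell markers 1 rose and 0 fell, with sums of 3.86 or less throughout. All 6 proximal tubule markers fell with injury and 5 rose with LepAb, with sums of 14361 to 15104, 3544 to 4673 and 6367 to 8155. Of 6 endothelial markers 1 rose and 2 fell with injury, and 0 were called with LepAb. None of the defining markers of leukocytes, macrophages, dendritic cells and T cells (Ptprc, Adgre1, Flt3, Itgax, Cd3e) was at 0 in a kidney library. Their part in the changes of the 32 genes was not tested, and in bulk RNA fewer cells of a type and less RNA per cell cannot be told apart.

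In bleomycin-injured lung, 30 of the 32 genes were not called with LepAb. In LepL against IgGL, H2-Q6 rose and Lgmn fell, where 1.78% of all 19617 genes tested rose and 2.36% fell. The fitted value was above 0 for 27 of the 32 genes, with a median of 0.37 against 0.00 over all genes. The groups did not overlap for 9 of the 32 genes, where 33.3% of all genes tested did not overlap.

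Lgmn was at 501, 769.5 and 852 normalized CPM in IgGL and at 393, 378 and 289.8 in LepL. Every LepL library lay below every IgGL library (log2 fold change -1.001 ± 0.21, adjusted p = 0.0395). H2-Q6 was at 4.98, 2.52 and 3.46 in IgGL and at 8.64, 7.88 and 10.8 in LepL, again without overlap (1.32 ± 0.28, adjusted p = 0.0405). H2-Q6 shares sequence with other H2-Q genes. Of its 75-base stretches in GENCODE M21 transcripts, 21.1% occurred in another gene, most often in H2-Q7, which had 0.87 ± 0.26 (adjusted p = 0.0787). Leaving out any 1 of the 6 lung libraries except IgGL replicate 1 ended both calls.

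Of the 13 class II genes, 11 were higher in LepL than in IgGL by value, within a wide spread among IgGL libraries, and Ifi30 and Lgmn were lower. H2-Aa was at 805, 396 and 274 normalized CPM in IgGL and at 891, 767 and 713 in LepL (0.68 ± 0.34, adjusted p = 0.223). Cd74 was at 1874, 909 and 629.8 in IgGL and at 2299, 1870.2 and 1734 in LepL (0.79 ± 0.35, adjusted p = 0.182). Ciita was at 61.4, 26.6 and 16.1 in IgGL and at 61.9, 44.8 and 49.5 in LepL (0.58 ± 0.40, adjusted p = 0.382). In each of these genes IgGL replicate 1 lay within the LepL range, and the other 2 IgGL libraries lay below all 3 LepL libraries. H2-Ab1, H2-Eb1, H2-Eb2, H2-DMa, H2-DMb1, H2-DMb2, H2-Oa and H2-Ob had 0.47 to 1.09, with adjusted p of 0.161 or more.

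Without IgGL replicate 1, 15 of the 32 genes were called higher and Lgmn lower. The 15 were H2-Aa, H2-Ab1, H2-Eb1, H2-Eb2, Cd74, H2-DMa, H2-DMb1, H2-DMb2, H2-Ob, Ciita, H2-Q4, H2-Q6, H2-Q7, H2-T23 and Psmb9. That fit rests on 2 IgGL libraries, and it called 1937 genes higher and 1602 lower over the whole table, where the fit of all 6 lung libraries called 349 and 463. The other omissions lowered these whole-table counts. In edgeR they became 0 and 0 on leaving out LepL replicate 2, LepL replicate 3 or IgGL replicate 2, and the unadjusted p was under 0.05 for 4069, 3401 and 3689 genes in these fits. Omitting IgGL replicate 3 gave 3 and 1, and omitting LepL replicate 1 gave 18 and 4. With the replicate number as a block they were 1 and 3.

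**Figure D4:**
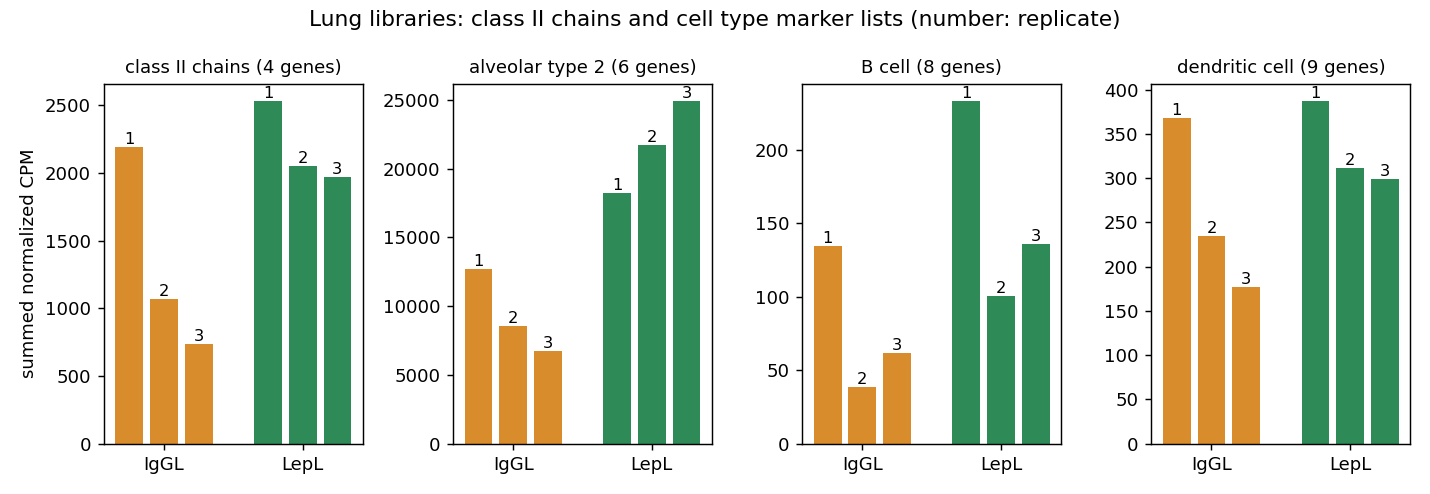
Summed normalized CPM (vertical axes, linear from 0, each panel its own scale) of the 4 class II chain genes and of 3 cell type marker lists in each lung library, with the replicate number over each bar. The class II sum is 2193, 1065 and 739 in IgGL and 2532, 2052 and 1970.0 in LepL, and the alveolar type 2 sum is 12678, 8533 and 6729 in IgGL and 18257, 21738 and 24932 in LepL.

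Marker lists in lung differed between and within the groups. The 6 alveolar type 2 markers summed to 12678, 8533 and 6729 normalized CPM in IgGL and to 18257, 21738 and 24932 in LepL, and 3 of the 6 rose. IgGL replicate 1 was highest of its group for the sums of class II chains, class I chains and of alveolar type 2, B cell, T cell, dendritic cell, macrophage, natural killer cell and general leukocyte markers, and not for endothelial markers. For the macrophage sum this came through Lyz2, and single macrophage markers were mixed. Adgre1 was at 70.5, 83.6 and 80.7 in IgGL, and Cx3cr1 at 41.1, 24.9 and 15.5. The B cell sum was 135, 38.5 and 61.3 in IgGL and 233, 101 and 136 in LepL, and the dendritic cell sum was 368, 234 and 177 against 387, 312 and 299. None of the 9 dendritic cell, 8 B cell, 8 T cell, 6 general leukocyte or 6 endothelial markers was called. Of 12 macrophage markers 4 fell, and by value 10 were lower and 2 higher, with a median log2 fold change of -0.67. Their sum went the other way, at 4184 to 7040 in IgGL and 8282 to 8544 in LepL. Most of that sum was 1 gene, Lyz2, at 5319, 3401 and 2201 in IgGL and at 7146, 6971 and 7368 in LepL. Of 6 natural killer cell markers 1 rose. The part of these cell types in the lung values of the 32 genes was not tested.

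Most class I genes in lung had small values in LepL against IgGL, apart from H2-Q6 and H2-Q7, whose values are given above. H2-K1 was at 1579, 1169 and 1254 normalized CPM in IgGL and at 1934, 1465 and 1687 in LepL (0.35 ± 0.17, adjusted p = 0.213). H2-D1 and B2m had 0.26 ± 0.14 and 0.26 ± 0.15, Nlrc5 0.33 ± 0.18, and the 5 peptide supply genes 0.09 ± 0.11 (Tap1) to 0.56 ± 0.22 (Psmb9). H2-Q4 and H2-T23 had 0.40 ± 0.13 and 0.42 ± 0.12, with adjusted p = 0.0932 and 0.0709. Tapbp, Erap1, Calr, Pdia3, H2-T22 and H2-M3 lay between -0.22 and 0.19, as did Ifi30 of the class II loading group. None of the class I genes other than H2-Q6 was called.

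The antibody values in kidney and lung differed for part of the set. In a fit of the 12 libraries from injured organs, the LepAb effect in kidney minus that in lung passed an adjusted p of 0.05 for 14 of the 32 genes, where 7.13% of all 21488 genes tested passed. It was negative for 13 of them, namely H2-Aa, H2-Ab1, Cd74, Nlrc5, H2-K1, H2-D1, B2m, H2-Q4, Psmb9, Psmb10, Tap1, Tap2 and Erap1, and positive for Lgmn. The difference was -1.52 ± 0.41 for Cd74 (adjusted p = 0.0436), -0.90 ± 0.18 for B2m (adjusted p = 0.0168) and 1.04 ± 0.23 for Lgmn (adjusted p = 0.0238). Leaving out 1 library moved the count of 14 to between 2 and 27, with 27 without IgGL replicate 1. In that fit 1853 values above 0 and 1910 below it passed over all genes tested. Without IgGK replicate 2, where 2 of the 32 genes passed, these were 147 and 222. The organs also differed in injuring agent, day, length of antibody treatment and the marker lists above, and these cannot be told apart.

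**Figure D5:**
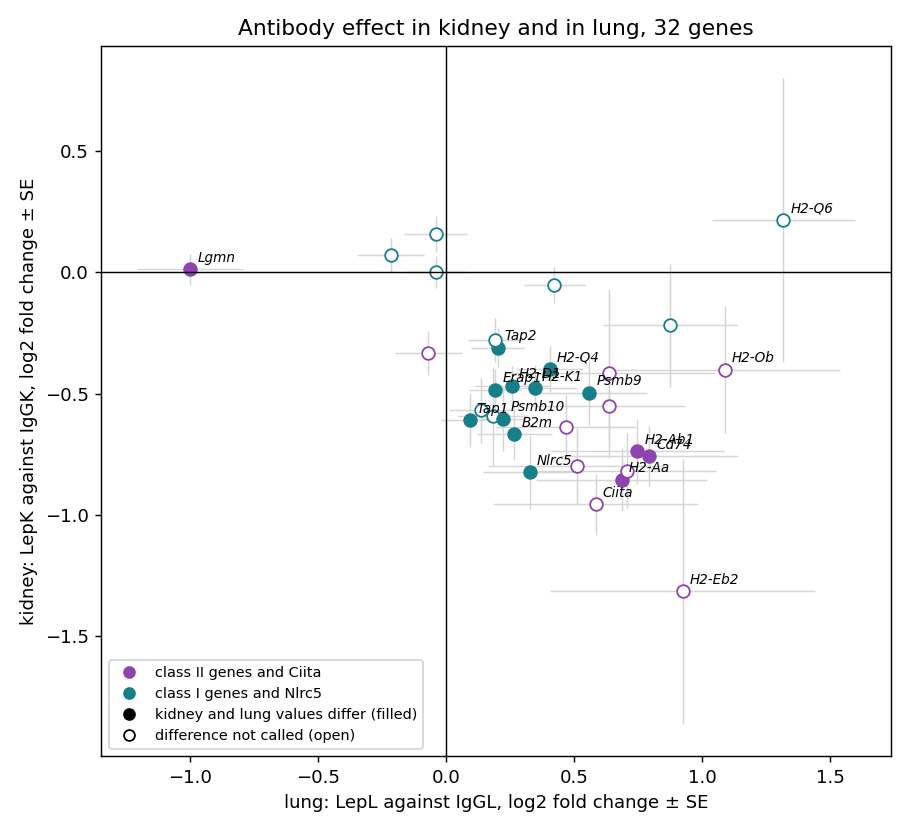
Log2 fold change ± SE of the 32 genes with LepAb in lung (LepL against IgGL, horizontal axis) and in kidney (LepK against IgGK, vertical axis). Filled points mark the 14 genes whose kidney and lung values differed, and most of them lie to the lower right (Cd74 at 0.79 and -0.76), with Lgmn at -1.001 and 0.01.

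The control IgG groups of the 2 injured organs differed in 6 of the 32 genes. In IgGL against IgGK, H2-D1 and H2-M3 were higher (0.79 ± 0.12 and 0.66 ± 0.16), and H2-Aa, H2-Ab1, H2-Eb1 and H2-DMb2 were lower (-0.90 ± 0.29, -0.87 ± 0.29, -1.28 ± 0.31 and -1.09 ± 0.31). These were 2 and 4 of the 32 genes, where 24.2% of genes tested were higher and 26.3% lower. The 4 lower genes rest on IgGL libraries that differed among themselves. Leaving out 1 library gave 2 to 9 lower genes and 2 to 5 higher ones. The 9 came without IgGL replicate 1, where 5836 of 22313 genes tested were lower.

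Levels were compared between genes per kilobase of the deposited gene length, scaled over all 15 libraries, so the order of genes depends on those lengths. In WTK the most abundant of the 32 were B2m at 433 ± 53.6 normalized CPM per kilobase (SD, n = 3) and Lgmn at 329.9 ± 15.9, followed by Calr at 225 ± 10.3 and Cd74 at 180.2 ± 17.7. In IgGK, Cd74 was at 966 ± 135 and B2m at 833 ± 115, followed by H2-Eb1 at 422 ± 55.3 and H2-K1 at 389 ± 49.6. Within each pair the means lay within the spread between libraries, while Cd74 was above B2m, and H2-Eb1 above H2-K1, in each of the 3 IgGK libraries. Before division by length, H2-Aa and H2-Eb1 were at 772 and 767 normalized CPM in IgGK. Their deposited lengths were 3798 and 1944 bases, while GENCODE M21 transcripts held 1127 and 1796 of their 75-base stretches. The ranking was not repeated with transcript lengths, so the places of H2-Aa and H2-Eb1 in it are uncertain. In LepK, Cd74 and B2m were at 572 ± 83.1 and 526 ± 16.6. In IgGL and LepL, B2m was at 1070.0 ± 170 and 1295 ± 75.6, and Cd74 at 611 ± 355 and 1062 ± 155. H2-Eb2 was the least abundant in all 5 groups, at 0.0898 ± 0.0853 in WTK to 1.82 ± 0.88 in LepL.

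A list of 46 other genes of the pathway gave the setting, and 43 of them were tested in kidney and in lung. In IgGK against WTK, 22 rose and 3 fell, with a median of 0.57, where 21.7% of genes tested rose and 15.6% fell. H2-M2, a class Ib gene, rose most (4.39 ± 0.45), from 0.0415 to 0.434 normalized CPM in WTK to 4.84 to 7.54 in IgGK, followed by Ctss (3.73 ± 0.19), the cathepsin that cleaves the invariant chain, and the costimulatory ligand Cd80 (2.77 ± 0.68). In LepK against IgGK, 8 fell and 0 rose, where 5.99% of genes tested fell and 4.38% rose. The 8 were led by Ctss (-1.52 ± 0.17), H2-M2 (-1.18 ± 0.35) and Cd83 (-0.85 ± 0.15), a marker of mature dendritic cells. Ctss was at 12.7, 16.1 and 19.2 in WTK, at 180.1, 254 and 205 in IgGK and at 58.0, 79.3 and 85.7 in LepK. In LepK against WTK, 13 were higher and 3 lower, where 15.2% of genes tested were higher and 7.3% lower. The largest changes were in H2-M2 (3.21 ± 0.45), H2-Q10 (2.49 ± 0.59) and Ctss (2.21 ± 0.18).

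In lung, 1 of the 43 other genes rose and 1 fell with LepAb, near the 1.78% and 2.36% of all genes tested that did. Irf1, an interferon-induced transcription factor, was at 81.2, 61.6 and 51.4 normalized CPM in IgGL and at 105, 94.9 and 119.7 in LepL (0.72 ± 0.17, adjusted p = 0.0498). Ctsl, cathepsin L, was at 357, 566 and 674 in IgGL and at 285, 307 and 248 in LepL (-0.93 ± 0.21, adjusted p = 0.0492). Both sat just under the threshold, and neither had overlapping groups. Neither call held under glmTreat or on leaving out LepL replicate 2, LepL replicate 3 or IgGL replicate 2, where 0 genes of the whole table were called (1901 at an unadjusted p under 0.05 in glmTreat). The kidney minus lung difference passed for 9 of 44 genes, 8 of them negative, where 7.13% of all genes tested passed. The largest differences were in Cd83 (-1.56 ± 0.36), Ctss (-1.24 ± 0.26) and H2-T24 (-1.22 ± 0.30). In IgGL against IgGK, 14 were higher and 6 lower, where 24.2% of genes tested were higher and 26.3% lower. The largest changes were in Ifng (-3.03 ± 1.09), Cd80 (2.48 ± 0.44) and Ctss (1.95 ± 0.19). Ifng was at 0 in 1 library of each group and at 0.514 normalized CPM or less in the others.

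Some counts could not be assigned to 1 gene with certainty, because the libraries did not keep the strand and several genes overlap. H2-DMa (26907 counts over all libraries) overlaps Brd2 (100446 counts) on the other strand, Tap1 overlaps Psmb9, Ciita overlaps Dexi, and Erap1 overlaps Cast. Among similar genes, the share of 75-base stretches found in another gene was 0% for H2-Aa, H2-Ab1, H2-Eb1 and Cd74, 1.12% for H2-K1 and 6.33% for H2-D1. It was 19.1% for H2-DMb1, 16.2% for H2-DMb2, 21.7% for H2-Q4, 22.6% for H2-Q7, 24.6% for H2-T22 and 13.1% for H2-T23. The counting rule for shared stretches is not given in the sources used here, so the values of the H2-Q, H2-T and H2-DMb genes are less certain than those of the other chains.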

How the data were processed

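RNA was measured by poly(A) RNA-seq of whole kidney (9 libraries) and whole lung (6 libraries), with 3 libraries in each of 5 groups, grouped by title, tissue and treatment labels. The deposited table holds whole-number gene counts that the authors obtained from a sequencing company. The submitters' processing notes name build GRCm39 and DESeq2, and the aligner and counter are not given in the sources used here. The table also holds the authors' FPKM values, group means, fold changes and p-values, which were not used.

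Counts were analysed in R 4.3.3 with edgeR 4.0.16 (filterByExpr with minimum count 10 and minimum total count 15, TMM scaling, glmQLFit and glmQLFTest, Benjamini-Hochberg adjustment). Fits used the 9 kidney libraries, the 6 lung libraries, and the 12 libraries of injured organs for IgGL against IgGK and for the kidney minus lung difference. The standard error is the log2 fold change over the square root of F. Calls used the fold and p thresholds of the study's methods, and the kidney minus lung difference used the adjusted p alone. Alternatives were DESeq2 1.42.0, RLE and library-size scaling, no low-count filter, other sets of libraries in the fit, a block for replicate number, a glmTreat test, calls on the adjusted p alone, and each library left out. The fits were tested on simulated data. Between replicates the chi-square statistic was 7.15 to 98.6 per gene, so no library appeared to be deposited more than once.

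All 32 members are named. Of 46 other pathway genes, the 3 called genes with the largest change are named per comparison, and marker lists are counted whole, with a marker that is not reported here by name. The members and all lists were chosen with earlier results of these data known. Sequences are RefSeq windows of GRCm38.p6, and 75-base stretches were compared in GENCODE M21 transcripts, so neither is in the build of the counts.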

Additional observations from a re-analysis of the deposited data

Results flagged for a closer look

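The LepAb effect in kidney minus the LepAb effect in lung was tested as an interaction in 1 edgeR fit of 12 libraries, and 14 of the 32 genes passed an adjusted p of 0.05, where 7.13% of all genes tested passed. The count was 2 to 27 with 1 library left out and 7 with the replicate number as a block. Over all genes tested, 468 values above 0 and 538 below it passed with the block. Without IgGK replicate 2, where 2 of the 32 genes passed, these were 147 and 222. Without IgGL replicate 1, where 27 passed, they were 1853 and 1910. For the class II genes the difference on the log2 scale was -1.51 for H2-Aa (adjusted p = 0.0415), -1.46 for H2-Ab1 (adjusted p = 0.0495) and -1.52 for Cd74 (adjusted p = 0.0436). For class I genes it was -1.12 for Nlrc5, -0.79 for H2-K1, -0.69 for H2-D1, -0.90 for B2m, -0.77 for H2-Q4, -1.03 for Psmb9, -0.80 for Psmb10, -0.67 for Tap1, -0.48 for Tap2 and -0.65 for Erap1, with adjusted p from 0.0139 (Erap1) to 0.0482 (Psmb9). Lgmn had the opposite sign, at 1.04 (adjusted p = 0.0238). A negative value means that the gene was lower with LepAb in kidney relative to lung. In lung none of the 13 genes with a negative difference was called by itself, so the difference does not show a rise there. Groups of 3 were not examined with a test for outlying samples.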

How the results depend on the processing

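In IgGK against WTK the count of higher genes was 25 to 26 under all alternatives, and 25 whichever library was left out, while the lower genes were 0 to 1 with a library left out (1 without WTK replicate 2) and 4 without the fold threshold. In LepK against IgGK the 13 lower genes became 20 under library-size scaling, 1 under glmTreat (Ciita), 21 without the fold threshold, and 8 to 16 with a library left out (8 without IgGK replicate 2), and 0 genes rose under any alternative. In LepK against WTK the 21 higher genes became 14 under glmTreat, 25 under library-size scaling and 20 to 23 with a library left out. There, 5 genes were lower without the fold threshold. The calls over all genes tested moved with these settings too. In LepK against IgGK 1174 fell, 2183 under library-size scaling, 137 under glmTreat and 1875 without the fold threshold. Without IgGK replicate 2, 695 fell. In LepK against WTK 2984 were higher, 1643 under glmTreat and 4778 under library-size scaling. In IgGK against WTK 3057 were lower, and 5040 without the fold threshold. In LepL against IgGL the 1 higher gene became 2 with DESeq2, 11 without the low-count filter, 0 with glmTreat, and 0 to 15 with a library left out (15 without IgGL replicate 1, 0 without each other library), and the 1 lower gene became 0 with glmTreat and 0 to 1 with a library left out. In IgGL against IgGK there were 2 lower genes when only the 2 groups were fitted, 1 higher and 2 lower with glmTreat, 7 higher without the fold threshold, and 2 to 5 higher and 2 to 9 lower with a library left out (5 higher without IgGL replicate 2, 9 lower without IgGL replicate 1, and 2 lower without IgGK replicate 2, IgGL replicate 2 or IgGL replicate 3). The kidney minus lung count of 14 became 22 under library-size scaling, 23 with DESeq2, 23 without the low-count filter, and 2 to 27 with a library left out, 27 without IgGL replicate 1 and 9 or fewer without each of the other 11. In LepL against IgGL 349 of all genes tested were higher, 1205 with DESeq2, 1515 of 35071 without the low-count filter and 0 with glmTreat. In IgGL against IgGK 5194 were higher and 5651 lower, and 4117 and 4546 with glmTreat. Kidney minus lung passed for 756 genes above 0 and 777 below it. These were 249 and 1965 under library-size scaling, 1331 and 1437 with DESeq2, and 1853 and 1910 without IgGL replicate 1. The cause of these shifts was not tested.

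The replicate number was also fitted as a replicate block. Deviations of libraries that share a number correlated at -0.0553 to 0.182. IgGK and LepK had 0.182 for replicates 1 and 0.165 for replicates 2, with -0.190 and -0.186 for the crossed pairs. Their replicates 3 had -0.0346, and not every IgGK or LepK library correlated best with its own number. Deviations within groups of 3 cannot decide whether the numbers pair the samples. With the replicate block, 0 genes were higher and 0 lower in LepL against IgGL, the kidney minus lung count was 7, 25 were higher in IgGK against WTK, and 14 were lower in LepK against IgGK. In LepK against WTK 22 were higher, and in IgGL against IgGK 2 were higher and 5 lower. Over all genes tested, the block gave 4208 higher in IgGK against WTK and 1237 lower in LepK against IgGK. It gave 2946 higher in LepK against WTK, and 5071 higher and 5587 lower in IgGL against IgGK. In LepL against IgGL these were 1 and 3.

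Under library-size scaling the all-gene median became 0.48 for IgGK against WTK, -0.19 in LepK against IgGK and 0.29 in LepK against WTK, and turned the sign of genes near 0. These were H2-T23 (0.27) and Pdia3 (0.0436) in IgGK against WTK, Lgmn (-0.17), H2-T22 (-0.0266), Calr (-0.11) and Pdia3 (-0.18) in LepK against IgGK, and H2-Q6 (0.0046), H2-T23 (0.0357) and Erap1 (0.16) in LepK against WTK. They were also H2-T22 (0.00061) and Pdia3 (0.00035) in LepL against IgGL, H2-Oa (0.0199) in IgGL against IgGK, and H2-T22 (-0.0272) and Pdia3 (-0.18) in kidney minus lung. Pdia3 had -0.0027 without the low-count filter in LepK against IgGK. H2-Oa in IgGL against IgGK had 0.0263 under RLE scaling, 0.0263 with DESeq2, 0.0160 without the filter and 0.0141 with only the 2 groups.

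Leaving out a library turned the sign of further uncalled values. H2-Q6 ran from -0.99 to 0.44 in IgGK against WTK and from -0.77 to 0.66 in LepK against WTK. In LepK against IgGK the ranges were -0.45 to 0.0045 for H2-Q7, -0.11 to 0.0098 for H2-T23, -0.0473 to 0.0474 for Pdia3, -0.0069 to 0.0366 for Lgmn and -0.14 to 0.48 for H2-Q6. In LepL against IgGL they were -0.13 to 0.0623 for H2-T22, -0.10 to 0.0587 for Pdia3 and -0.16 to 0.0432 for Ifi30. In IgGL against IgGK they were -0.37 to 0.30 for H2-Oa, -0.0603 to 0.18 for H2-K1, -0.23 to 0.34 for H2-Q7, -0.0272 to 0.22 for Psmb8, -0.55 to 0.21 for H2-DMb1, -0.21 to 0.0052 for Psmb10, -0.40 to 0.71 for H2-Eb2, -0.10 to 1.02 for H2-Ob, -0.0301 to 0.14 for H2-T23, -0.16 to 0.34 for Psmb9 and -0.0608 to 0.0878 for H2-T22. In kidney minus lung Pdia3 ran from -0.0583 to 0.13.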

Other observations

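Ratios between class II genes differed between the kidney groups. Per kilobase, H2-DMb2 per H2-DMb1 was 0.147 ± 0.0216 (SD, n = 3) in WTK, 0.508 ± 0.0432 in IgGK and 0.434 ± 0.0462 in LepK, and 0.261 ± 0.0618 and 0.231 ± 0.0465 in IgGL and LepL. Both genes encode an H2-DM beta chain and share 75-base stretches, so the split of reads between them is uncertain. Cd74 per H2-Aa was 5.37 ± 0.232 in WTK, 4.45 ± 0.116 in IgGK and 4.74 ± 0.0649 in LepK, and H2-Eb1 per H2-Ab1 was 1.18 ± 0.0071, 1.42 ± 0.0171 and 1.33 ± 0.0949. The 3 IgGK libraries lay apart from the 3 WTK libraries in these ratios, where the exact permutation test of 3 against 3 (2-sided) gave its smallest p of 0.1.

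The ratio of the 2 classical class I heavy chains differed by value between kidney and lung libraries and was not tested between them. The injured organs differed also in injuring agent, day and length of antibody treatment. H2-D1 per H2-K1 was 0.956 ± 0.0350 in WTK, 0.754 ± 0.0140 in IgGK and 0.761 ± 0.0441 in LepK, and 1.24 ± 0.0666 in IgGL and 1.17 ± 0.0455 in LepL. IgGK and LepK did not separate in this ratio (exact permutation p = 0.9), while both lay below WTK in every library (exact permutation p = 0.1 for each).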
